A study of Mus musculus with 211 samples.

Results

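The cytosolic ribosomal protein genes were examined in single cells from the adult mouse cochlea. A gene was a member when its symbol began with Rpl or Rps and a digit, or was *Rplp0*, *Rplp1*, *Rplp2* or *Rpsa*, and when the annotation called it protein-coding. Entries named as pseudogenes and the Rps6k kinases were left out, which kept 86 of 48709 genes. Of these, 46 encode proteins of the large (60S) subunit and 31 proteins of the small (40S) subunit. Another 8 are paralogs of such genes, and the symbol rule also took *Rps19bp1*, which encodes a binding partner and not a ribosomal protein. The genes *Fau*, which encodes a ribosomal protein fused to a ubiquitin-like protein, and *Rack1*, a scaffold on the 40S subunit, fall outside the rule and were followed as related genes.

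A ribosome joins a small subunit, which reads the mRNA, to a large subunit, which forms the peptide bonds. Each subunit holds ribosomal RNA and a fixed set of proteins, most of them present in a single copy, so cells that grow and divide make these mRNAs in large amounts. Myeloid precursors are known for active protein synthesis, and mature neutrophils for little transcription and few ribosomes.

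The libraries came from CD1 mice carrying the Lfng-EGFP transgene, Tg(Lfng-EGFP)HM340Gsat, in which a bacterial artificial chromosome with *Lfng* regulatory sequence drives EGFP. Animals of either sex were pooled at P60 or P120, without a treatment, and cells bright for GFP were sorted, captured on Fluidigm C1 chips and turned into full-length cDNA libraries. The 211 cells fell into 8 captures of P60 and 4 of P120 animals, each capture a chip loaded with cells of pooled cochleae, from 4 mice by the study's own list. All 12 captures share the strain and the transgene, and no GFP-negative cells were included. The cells are labelled as adult cochlear supporting cells (SCs).

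The cells held from 41 to 5361476 reads on genes, with a median of 736455. Transcripts of neutrophils took 16.1% of all reads, and 197 of the 211 cells had at least 10 reads of at least 3 of the 11 neutrophil genes. The 14 SC genes took 0.0334% of reads and reached the same level in 4 cells, and *Hes5* among them had no read. The label therefore was not borne out by its markers, and the cells are described below by the transcripts they held. No 2 cells held identical counts. Capture 10c stood apart, with 119240 reads over 13 cells and a median of 451 reads per cell, so results at P60 are given with and without it.

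Cells with at least 10 reads of *Elane* or *Mpo*, which encode enzymes of the primary granules made in granulocyte precursors, and fewer than 10 reads of *Il1b* are called precursor-positive, and there were 43 of them. Cells with at least 10 reads of *Il1b*, an interleukin gene of activated myeloid cells, and fewer than 10 of each of the other genes are called Il1b-positive, and there were 92. Another 24 cells passed both thresholds and 52 passed neither. No ribosomal protein gene was used to form these classes. Precursor-positive cells had a median of 1700682 reads and Il1b-positive cells one of 653435.

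Many ribosomal protein mRNAs begin with a C followed by a run of pyrimidines, the terminal oligopyrimidine (TOP) motif, through which mTOR and LARP1 are known to control their translation. The annotated start sites are shown as background, and a link between the motif and the mRNA levels in these cells was not tested. RefSeq starts on GRCm38.p6 were used for 66 of the 86 members. A C followed by at least 4 bases that were each C or T, on the sense strand and within 10 bases of the start, was present for 40 of 66 members (60.6%) and for 34.4% of 27025 genes. With that C at the annotated start itself, it was present for 14 of 66 members (21.2%) and for 3.01% of all genes. Each sequence below runs from 15 bases before the start to 14 bases after it, 5′ to 3′. Capitals begin at the matching C nearest the start and follow the pyrimidines from there. In all 5 sequences with capitals the run also extends upstream, in small letters. The first 5 hold the motif within 10 bases of the start and the last 3 do not. The *Rpl4* sequence holds such a run further upstream, outside the 10 bases searched.
Rps6 (chr4:86857353-86857382, minus strand): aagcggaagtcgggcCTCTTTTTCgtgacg
Rpl28 (chr7:4792950-4792979, plus strand): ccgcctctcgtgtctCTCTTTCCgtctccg
Rps27 (chr3:90213634-90213663, minus strand): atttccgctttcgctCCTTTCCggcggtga
Rplp2 (chr7:141447636-141447665, plus strand): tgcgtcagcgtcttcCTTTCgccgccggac
Rps9 (chr7:3704026-3704055, plus strand): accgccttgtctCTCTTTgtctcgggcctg
Rpl4 (chr9:64173372-64173401, plus strand): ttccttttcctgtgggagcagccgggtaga
Rpsa (chr9:120127751-120127780, plus strand): gtgggttatttaaggacgtcatttccggcc
Rpl11 (chr4:136053379-136053408, minus strand): ctgacccataaggccacggggccggaagtc

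The 86 members together took 4953433 reads, 2.25% of all reads on genes, and 84 of them had at least 1 read. The paralogs *Rpl10l* and *Rpl39l*, both known from testis, had none, which allows each a share of cells with a read of up to 1.73% (exact Clopper-Pearson 95% interval, counting error only). The share of a cell's reads on these genes ranged from 0.0363% to 11.5% with a median of 1.15%. Over the 211 cells the share had a Spearman correlation of 0.11 with the reads per cell, and the number of members detected one of 0.68. Cells of a capture share its library preparation, so both values describe the cells only.

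Per kilobase of transcript, the level of a member was taken as its counts per 1000000 reads (CPM) divided by the transcript length in kilobases (RPKM), averaged over captures. In the 11 captures other than 10c, *Rps27* had the highest level, 2402 ± 1823 RPKM (SD, n = 11). *Rps9*, next in order, had 1498 ± 929 RPKM and *Rps29* had 1457 ± 1105 RPKM. All 3 encode proteins of the small subunit. *Rpl9* followed with 1153 ± 747 RPKM and *Rpl41*, which encodes the smallest ribosomal protein, with 1021 ± 633 RPKM. The order is loose. For 80 of the 83 neighbouring pairs in it the gap was smaller than the SD of either member. With capture 10c, *Rpl28* came first at 2711 ± 8756 RPKM (n = 12) and *Rpl4* took the place after *Rps27*.

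The lowest members with any read were *Rpl24* at 0.408 ± 0.690 RPKM, the striated muscle paralog *Rpl3l* at 2.19 ± 7.25 RPKM, *Rpl13a* at 3.15 ± 3.85 RPKM, *Rps19bp1* at 4.49 ± 8.72 RPKM and *Rpl7l1* at 14.2 ± 21.5 RPKM. *Rpl24* and *Rpl13a* encode constitutive 60S proteins. *Rpl24* had 78 reads in 16 cells and *Rpl13a* had 1218 reads in 30 cells, while *Rps9* had 211836 reads in 190 cells. Many members share sequence with other genes. Of the 90-base windows in its coding transcripts, 80.4% of those of *Rpl24* and 8.89% of those of *Rps9* also occur in a transcript of another annotated gene, and 19 members had at least 50% of their windows shared. Entries named as ribosomal protein pseudogenes held 72403 reads, 1.46% of the members' reads. How reads that match several genes were counted was not tested, so levels of members such as *Rps6* (83.8% shared), *Rpl10* (69.5%), *Rpl3* (61.7%) and *Rpl11* (51.9%) are uncertain.

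The comparison of ages asked whether the ribosomal protein genes differed between P60 and P120. In the reads summed per capture, the members' share at P60 was lowest in capture 20c at 0.975%, had a median of 2.70% and was highest in capture 10c at 6.51%. At P120 it was 2.96% in capture 28, 2.72% in capture 32, 0.549% in capture 36 and 1.61% in capture 38. The means were 3.18% ± 2.05 at P60 (SD, n = 8) and 1.96% ± 1.11 at P120 (SD, n = 4), so the difference of -1.22 percentage points was smaller than the spread and the ages overlapped. Without capture 10c the mean at P60 was 2.71% ± 1.67 (n = 7).

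**Figure D1:**
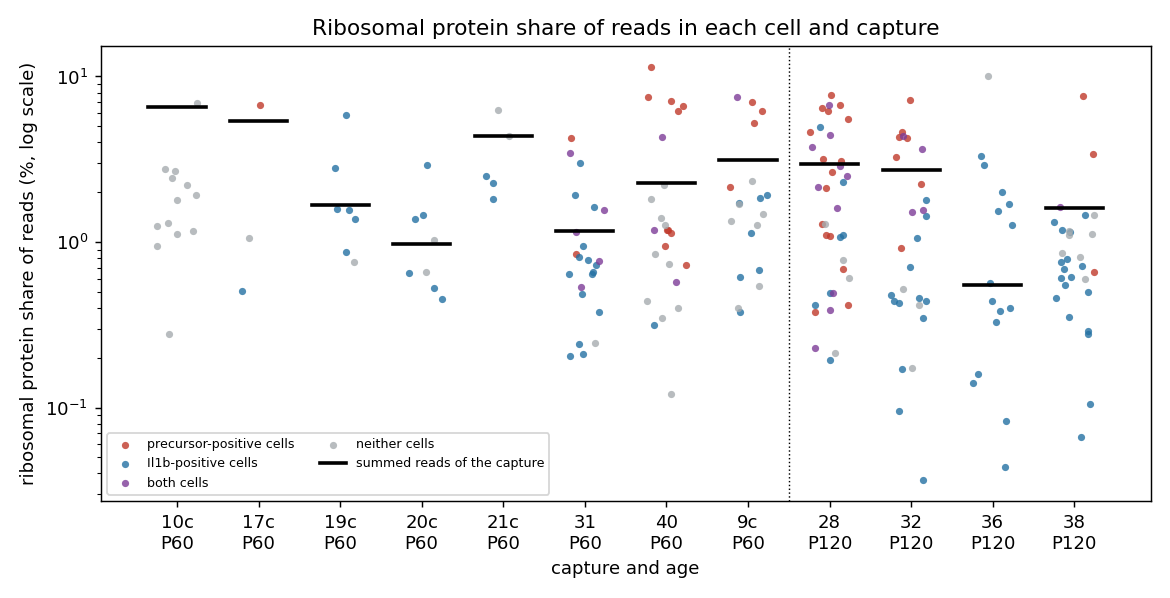
Share of reads on the 86 ribosomal protein genes (percent, log scale) in each of the 211 cells, by capture and age, with cells coloured by class and a bar at the value for the summed reads of the capture. Cells spread from 0.0363% to 11.5%, the precursor-positive cells lie towards the top of most captures, and the 8 captures at P60 overlap the 4 at P120.

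Age was partly tied to sequencing run. The 6 captures of run S047 were all at P60 and had a mean share of 3.67% ± 2.15. The other 2 captures at P60 came from the runs that also held all of P120, and had 1.17% and 2.27%, inside the range of the P120 captures. Within those runs the ages could thus be set side by side, with 2 captures against 4, and the values overlapped. Captures also differed in make-up, from 0 precursor-positive cells in captures 10c, 19c, 20c, 21c and 36 to 16 in capture 28, so shares were also taken within a class. In Il1b-positive cells they were 1.11% ± 0.7104 at P60 (n = 7) and 0.723% ± 0.135 at P120 (n = 4), and in precursor-positive cells 4.99% ± 1.88 (n = 4) and 4.69% ± 0.852 (n = 3). Both differences were smaller than the spread at P60. Captures with few cells of a class were kept in these means. At P60 the Il1b values of captures 17c and 40 came from 1 cell each. The precursor values of captures 17c and 31 came from 1 and 2 cells.

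Across all genes, the quasi-likelihood test of edgeR, with p-values adjusted after Benjamini and Hochberg, took in 82 of the 86 members and called 1 of them, *Rpl28*, as higher at P60, against 0.0599% of the 8346 genes tested called in that direction. No member was called higher at P120, where the share of all genes was also 0.0599%. At an unadjusted p under 0.05 there were 3 members (*Rpl28*, *Rps20* and *Rpl4*, all higher at P60) against 5.31% of all genes. DESeq2 called 0 members in either direction, and 4 of all genes tested in each direction. The median log2 fold change (P120 over P60) was -0.22 over the members and 0.26 over all genes tested, with 31 members above 0 and 51 below, where 56.4% of all genes were above 0.

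*Rpl28*, a 60S protein that is absent from budding yeast, was at 28648 CPM in capture 10c. In the other 7 captures at P60 it lay between 0.212 and 501 CPM, and in the 4 captures at P120 between 9.09 and 189. The groups overlapped except for capture 10c. The log2 fold change was -7.49 (SE 1.84, adjusted p = 0.0478 by edgeR), and without capture 10c it was -1.09 and no longer called. The call also ended without capture 9c, 19c, 20c, 28, 31, 32, 36, 38 or 40, at -7.06 to -7.87, and held without 17c or 21c. A single cell of that capture held 110984 of its 119240 reads, and 44% of the capture's ribosomal protein reads were on *Rpl28*. *Rps20* (17586 CPM in capture 10c) and *Rpl4* (17872) were high in the same capture, with values of at most 1164 and 1931 in the other captures at P60.

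The comparison of classes asked whether cells with primary granule transcripts and cells with *Il1b* differed in these genes. They did in the same direction in every capture that held both. Precursor-positive cells gave 4.45% of their reads to the members in capture 28, 3.99% in capture 32, 5.64% in capture 38 and 6.25% in capture 9c. The Il1b-positive cells of the same captures gave 0.866%, 0.744%, 0.741% and 1.29%. The lowest precursor value thus lay above the highest Il1b value, and the ratio within a capture was 5.14, 5.35, 7.61 and 4.85. These 4 captures are those with at least 3 cells of each class, 30 precursor-positive and 45 Il1b-positive cells in all.

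The means were 5.08% ± 1.04 in the precursor-positive and 0.910% ± 0.259 in the Il1b-positive cells (SD, n = 4 captures), a difference of 4.17 ± 0.886 percentage points. In 3 further captures with fewer cells of a class the order was the same, at 6.74% and 0.509% in capture 17c, 2.65% and 0.665% in capture 31, and 4.32% and 0.317% in capture 40. Cell by cell the classes overlapped, with shares from 0.380% to 11.5% in precursor-positive and from 0.0363% to 5.85% in Il1b-positive cells. Of the 92 Il1b-positive cells 2 lay above the precursor median of 3.40%, and of the 43 precursor-positive cells 3 lay below the Il1b median of 0.667%. Since the summed level is a score over a chosen list, it is given without a p-value. A share of reads cannot tell more ribosomal protein mRNA from less of other mRNA.

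**Figure D2:**
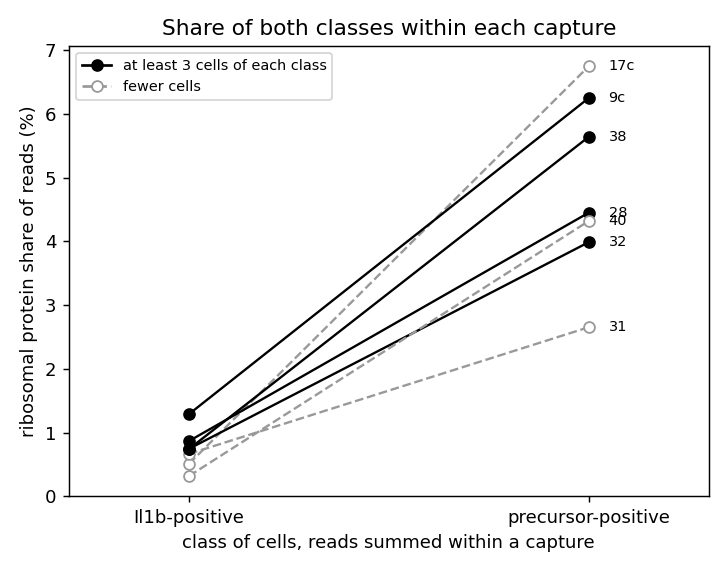
Share of reads on the ribosomal protein genes (percent) in Il1b-positive and precursor-positive cells, reads summed within a capture, with a line joining both classes of a capture. Black lines are the 4 captures with at least 3 cells of each class and grey dashed lines the 3 with fewer, and all 7 lines rise towards the precursor-positive cells.

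Class and sequencing run were also partly tied. In the compared captures, 14 precursor-positive and 7 Il1b-positive cells were from run S059iso1, and 12 and 31 from run S059iso2. Cells of the same capture and run could be compared in 3 captures, and the precursor share was higher in each, at 4.34% against 0.866% in capture 28, 5.64% against 0.601% in capture 38 and 6.25% against 1.29% in capture 9c. The difference within runs was 4.49 percentage points on average.

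Other transcripts moved with the classes. The summed level of the neutrophil list was 5.80% to 11.8% of reads over the 4 captures in precursor-positive cells and 12.7% to 23.4% in Il1b-positive cells. The cycling list (*Mki67*, *Top2a*, *Ccnb1*, *Birc5* and *Cdk1*) was at 0.112% to 0.257% and 0.0180% to 0.0832%, and the basophil list at 0.00110% to 5.89% and 0.000390% to 0.00227%. The T and NK cell list was at 0.0503% to 0.208% in precursor-positive and 0.000142% to 0.0101% in Il1b-positive cells. The leukocyte list (0.408% to 0.617% and 0.940% to 2.10%) and the SC list (0.000511% to 0.00298% and 0.00349% to 0.0237%) were separated in the other direction. In precursor-positive cells with at least 10 reads of *Mki67* or *Top2a* the median share of ribosomal protein reads was 4.26% (29 cells). In those without it was 2.70% (14 cells, from 0.414% to 11.5%). Their depth differed too, with medians of 1810799 and 592818 reads, and a fixed count of 10 reads is easier to reach in a deep cell. Cells with at least 10 reads of the basophil genes *Mcpt8* or *Prss34* had a median of 4.29% (13 cells) and the others 2.61% (30 cells). Without the cells positive for *Mki67* or *Top2a* the difference between the classes was 4.08 percentage points, and without those positive for *Mcpt8* or *Prss34* it was 4.17, each over 2 captures. In the fits across all genes, 79 of 79 members tested were above 0 without the former cells. Their median log2 fold change was 3.51, against 0.62 over the 4349 genes tested. Without the latter cells 78 of 81 members were above 0, with a median of 2.01 against 1.02 over 5708 genes. No member was called by edgeR in either fit, where 0 and 2 of all genes were called higher in precursor-positive cells. At an unadjusted p under 0.05 there were 2 and 1 members. The shares of all genes above 0 or at that p are not given for these fits.

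The 24 cells positive for both gene groups had a median share of 1.61%, between the medians of the classes. In capture 28 their summed share was 2.26% (10 cells), in capture 31 1.77% (5 cells), in capture 32 2.97% (4 cells) and in capture 40 2.66% (3 cells). Each of these 4 values, and the 1.62% of the single such cell in capture 38, fell between the precursor-positive and the Il1b-positive value of its capture. The single such cell of capture 9c, at 7.48%, lay above both. The 52 cells positive for neither had a median of 1.12%.

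The number of members detected per cell was compared after each cell was thinned at random to 50000 reads, which 164 cells reached. A median of 76.5 members (16 to 80) had at least 1 read in the 38 precursor-positive cells and 16.5 (3 to 67) in the 78 Il1b-positive cells. All genes behaved likewise, with medians of 2410 and 741.5 genes detected. Members made up 2.83% of the genes detected in precursor-positive and 2.22% of those detected in Il1b-positive cells. By capture, the medians were 71 and 22.5 in capture 28, 77 and 16 in capture 32, and 78 and 22 in capture 9c. The mean difference over these 3 captures was 55.2 ± 6.29 members.

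At that depth 77 members were present in at least 50% of the precursor-positive cells, and 8 in at least 50% of the Il1b-positive cells. The highest shares of Il1b-positive cells were those of *Rps27* (80.8%), *Rps9* (76.9%), *Rps29* (65.4%) and *Rpl37* (60.3%), chosen by these values. Over all 86 members the share of cells was higher in the precursor-positive cells for 82 and lower for 1, *Rps27rt*. The same counts over all genes were not taken. More genes of any kind were detected in precursor-positive cells (medians 2410 and 741.5), and whether these counts are particular to the members was not tested. The ages were close in this measure, with medians of 27 members at P60 (80 cells) and 24 at P120 (84 cells).

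**Figure D3:**
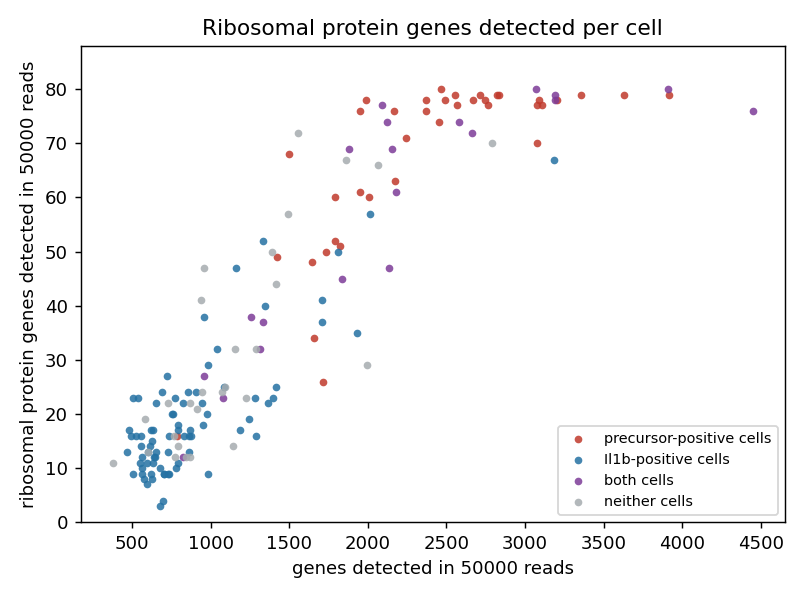
Ribosomal protein genes with at least 1 read against all genes with at least 1 read in each of the 164 cells thinned to 50000 reads, coloured by class. Precursor-positive cells cluster near a median of 76.5 members and Il1b-positive cells near 16.5, and members detected rise with all genes detected.

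Gene by gene, 77 of the 86 members had a higher CPM in precursor-positive than in Il1b-positive cells in all 4 captures, against 8.96% of the 21620 genes with a read in these cells. None had a higher CPM in Il1b-positive cells in all 4, against 6.72% of the genes that passed the filter on low counts. For 72 members the lowest precursor value lay above the highest Il1b value, against 5.59% of the 21620 genes. By subunit, 45 of 46 large subunit genes, 28 of 31 small subunit genes and 4 of 8 paralogs were higher in all 4 captures. The shares among the 5775 genes that passed the filter on low counts were 25% for the direction and 15% for the separation, and 81 members passed it. *Rpl10l*, *Rpl24*, *Rpl39l*, *Rpl3l* and *Rps19bp1* did not.

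The spread between captures was large for single genes, and edgeR called few members. With the capture as a block, edgeR called 1 of the 81 members as higher in precursor-positive cells, against 0.312% of all genes tested, and 0 as higher in Il1b-positive cells, against 1.56%. At an unadjusted p under 0.05 there were 15 members, all higher in precursor-positive cells, against 15% of all genes in either direction. DESeq2 called 23 members as higher in precursor-positive cells, against 22.2% of all genes, and 0 as lower. The median log2 fold change (precursor over Il1b) was 2.35 over the 81 members and 1.28 over all genes tested, and 79 members were above 0 against 62.6% of all genes. Scaled to total reads alone both medians were higher, at 3.33 and 2.21, and the calls over all genes were 66 higher and 48 lower in precursor-positive cells, against 18 and 90 under the usual scaling (TMM).

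**Figure D4:**
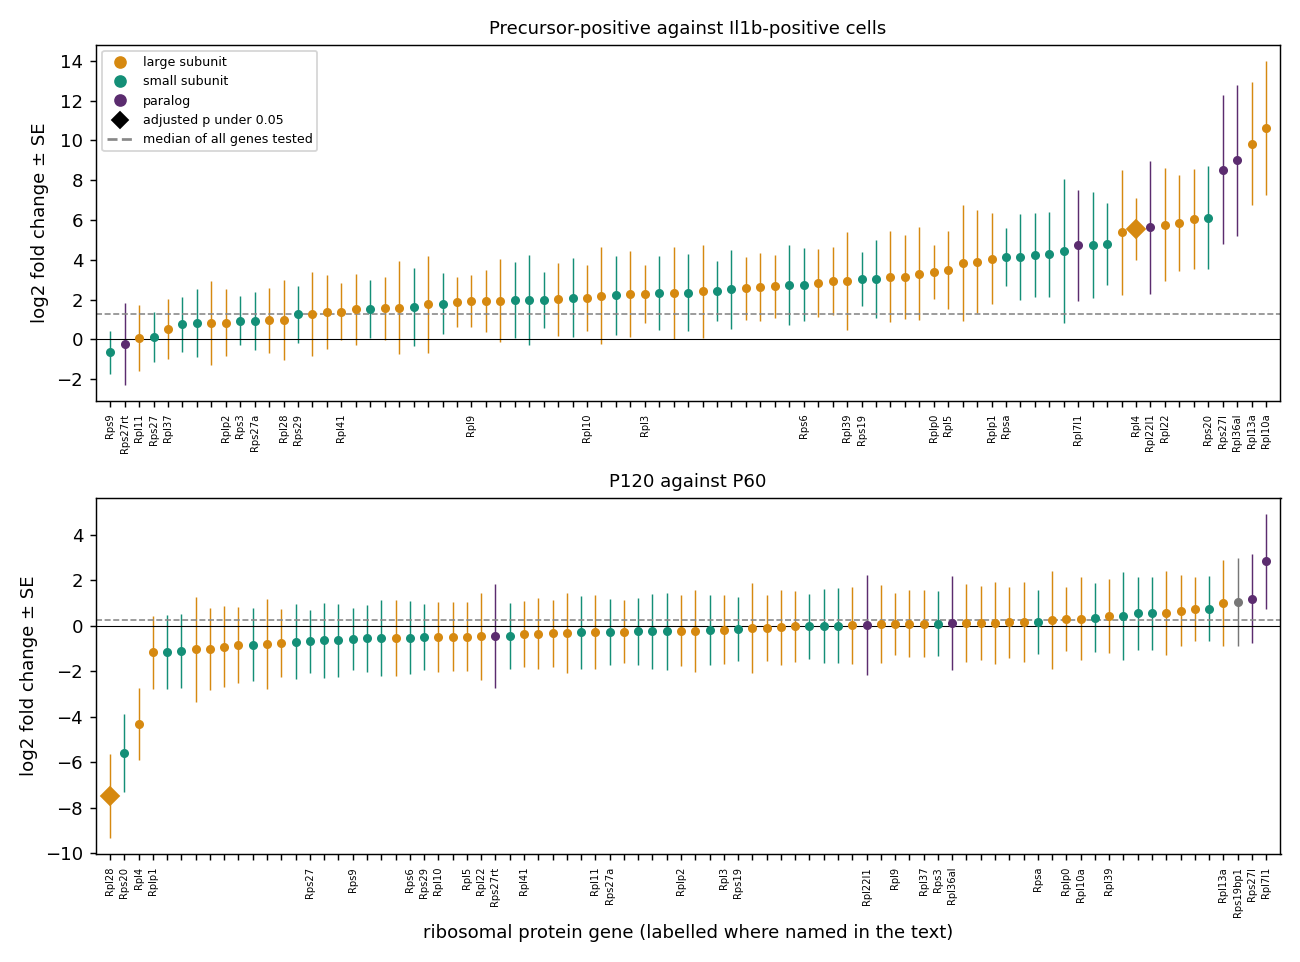
Log2 fold change with its standard error for each ribosomal protein gene tested, for precursor-positive over Il1b-positive cells (upper panel) and P120 over P60 (lower panel), coloured by subunit, with diamonds for an adjusted p under 0.05, a dashed line at the median of all genes tested, and labels for the genes named in the text. In the upper panel 79 of 81 members lie above 0 and *Rpl4* is called, and in the lower panel *Rpl28* is called, with *Rps20* and *Rpl4* next to it at the low end.

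*Rpl4*, a 60S protein that lines the peptide exit tunnel, was the member edgeR called between the classes. It had 1276 CPM in capture 28, 1313 in capture 32, 3157 in capture 38 and 3281 in capture 9c in precursor-positive cells. In Il1b-positive cells it had 86.5, 10.0, 0.447 and 135. No value overlapped. It was higher by 5.53 on the log2 scale (SE 1.56, adjusted p = 0.0261 by edgeR). The call did not hold when capture 32, 38 or 9c was left out, nor within sequencing runs (adjusted p = 0.302), and it held without capture 28.

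Among the other large subunit genes, the stalk proteins recruit elongation factors to the ribosome. *Rplp0*, the base of the stalk, had 2114 ± 743 CPM in precursor-positive and 122 ± 88.4 in Il1b-positive cells (SD, n = 4), from 1311 to 3096 against 19.1 to 222. The log2 fold change was 3.39 (SE 1.36, adjusted p = 0.183 by edgeR). *Rplp1* had 453 ± 163 and 28.6 ± 23.9 CPM and *Rplp2* 478 ± 178 and 140 ± 64.4. All 3 were separated between the classes in these captures. None was called by edgeR, while DESeq2 called *Rplp0* and *Rplp1*, and edgeR scaled to total reads called *Rplp0*.

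*Rpl5* and *Rpl11* bind 5S ribosomal RNA and, outside the ribosome, Mdm2. *Rpl5* had 771 to 997 CPM in precursor-positive and 0.0 to 334 in Il1b-positive cells. For *Rpl11* the ranges were 204 to 655 and 88.8 to 248, which overlap, and the log2 fold change was 0.07 (SE 1.65), reversing under several settings. *Rpl3*, at the peptidyl transferase centre, had 1040 ± 210 and 158 ± 124 CPM. *Rpl10*, which joins the 60S subunit last, had 804 ± 592 and 224 ± 318, with both classes highest in capture 9c. *Rpl22*, which can be missing without loss of the ribosome, had 167 ± 49.7 and 2.91 ± 3.78. *Rpl39*, in the exit tunnel, had 238 ± 122 and 31.7 ± 28.5, and *Rpl41* 829 ± 271 and 186 ± 130. *Rpl28* had 256 ± 50.2 and 143 ± 197, and in capture 9c it was higher in the Il1b-positive cells, at 437 against 327.

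At the low end, *Rpl13a* had 8.90 to 21.6 CPM in precursor-positive cells and no read in the Il1b-positive cells. Summed over all compared cells it was 165-fold above a floor of 3 reads over the 34357608 reads of the Il1b-positive cells. That floor treats reads as separate molecules, while repeated PCR copies are counted here. The value describes the summed reads and is not a bound across captures. *Rpl24* had 60 reads in the precursor-positive and none in the Il1b-positive cells of these captures. Over all captures, in cells thinned to 50000 reads, it was read in 5.26% of precursor-positive and 3.85% of Il1b-positive cells, so the gap did not extend to the classes as a whole. *Rpl10a*, chosen after its values were seen for its fitted log2 fold change of 10.62 (SE 3.38, adjusted p = 0.0744 by edgeR), had 254 to 483 CPM in precursor-positive cells. In Il1b-positive cells it had 17.01 in capture 9c and at most 0.136 in the other 3.

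Among small subunit genes, *Rpsa*, which also acts as the laminin receptor, had 2419 ± 525 CPM in precursor-positive and 140 ± 147 in Il1b-positive cells. Its values were 1678, 2418, 2747 and 2833 against 323, 31.2, 195 and 12.05 in captures 28, 32, 38 and 9c, with a log2 fold change of 4.12 (SE 1.46, adjusted p = 0.108 by edgeR). *Rps19*, mutated in Diamond-Blackfan anaemia, had 1635 ± 256 and 135 ± 117. *Rps6*, the substrate of the Rps6k kinases, had 582 ± 241 and 62.4 ± 67.1. *Rps3*, at the mRNA entry, had 1267 ± 514 and 361 ± 183, and *Rps27a*, made as a ubiquitin fusion, had 733 ± 166 and 236 ± 183. In all 5 the precursor values lay above the Il1b values in these captures.

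For *Rps9* and *Rps27* the fitted fold was among the lowest of the members. *Rps9*, at the mRNA entry channel, had 965, 1003, 981 and 1503 CPM in precursor-positive cells of captures 28, 32, 38 and 9c, and 653, 739, 811 and 1740 in Il1b-positive cells. The classes overlapped, and the means were 1113 ± 260 and 985 ± 507. The log2 fold change was -0.65 (SE 1.10) under the usual scaling and 0.34 when scaled to total reads. *Rps27* had 882 ± 217 and 437 ± 139 CPM, with its lowest precursor value (661) above its highest Il1b value (560). Its log2 fold change was 0.13 (SE 1.27) under the usual scaling and 1.12 when scaled to total reads. Under the usual scaling its sign turned with captures 28 or 9c left out. Under the usual scaling both folds lay below the median of 1.28 over all genes.

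**Figure D5:**
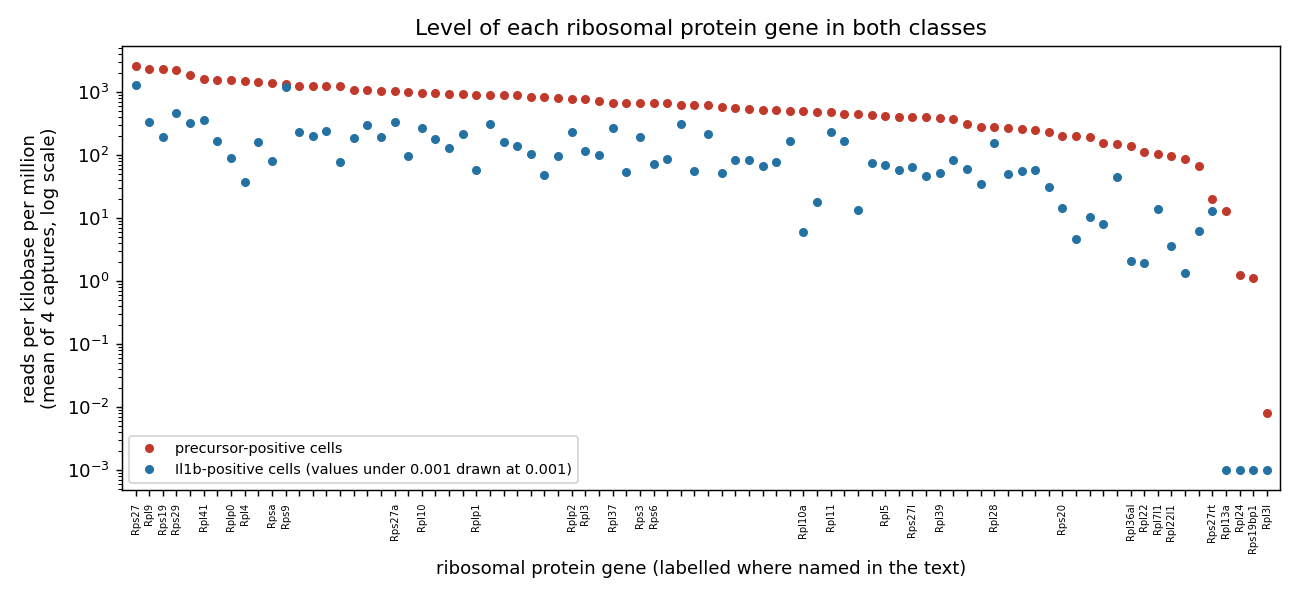
Level of each ribosomal protein gene with a read (reads per kilobase of transcript, RPKM, mean of 4 captures, log scale) in precursor-positive and Il1b-positive cells, in order of the precursor level, with labels for the genes named in the text. The precursor level is the higher one for each gene drawn, by the least for *Rps9* and *Rps27rt*, both genes without a read are left out, and Il1b values under 0.001, those of the last 4 genes, are drawn at 0.001.

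The members' own reads were thus divided differently. In Il1b-positive cells *Rps9* took 10.5% ± 2.47 of the ribosomal protein reads and *Rps27* 5.17% ± 2.45 (SD, n = 4 captures). In precursor-positive cells the same genes took 2.21% ± 0.344 and 1.77% ± 0.441, and *Rpsa* (4.81% ± 0.955), *Rpl4* (4.25% ± 1.37) and *Rplp0* (4.12% ± 0.927) took the most. The ratio of large to small subunit reads was 1.06, 1.09, 1.11 and 1.297 in precursor-positive cells of captures 28, 32, 38 and 9c and 0.965, 1.15, 0.557 and 0.870 in Il1b-positive cells. It was lower in the Il1b-positive cells in 3 of 4 captures and the ranges overlapped.

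From cell to cell, the shares of both subunits went together in precursor-positive cells (Spearman 0.95 over 38 cells with at least 50000 reads) and less closely in Il1b-positive cells (0.44 over 78 cells). The subunits share a cell's library, and the share of the Il1b-positive cells rests on fewer ribosomal protein reads. These correlations describe the cells and were not tested against each other.

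Among the paralogs, 5 were tested and edgeR called none. DESeq2 called 4 of them as higher in precursor-positive cells (*Rpl22l1*, *Rpl36al*, *Rpl7l1* and *Rps27l*), against 22.2% of all genes tested. *Rpl36al* had 119 ± 53.8 CPM in precursor-positive and 1.76 ± 3.45 in Il1b-positive cells, and *Rpl22l1*, the paralog of *Rpl22*, had 53.7 ± 22.6 and 1.97 ± 2.95. *Rps27l*, a p53 target, had 144 to 289 against 0.0 to 128, with the highest Il1b value in capture 38. *Rpl7l1* had 65.9 to 550 against 0.0 to 105.2, with both classes highest in the same capture. *Rps27rt*, with 89.8% of its windows shared with other genes, had 7.44 ± 2.33 and 4.75 ± 1.86, and its ranges overlapped. *Rps4l* is annotated as a pseudogene and was not a member.

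Genes that work with the ribosome were followed from lists. *Rack1* had 1085 ± 240 CPM in precursor-positive and 72.02 ± 101.04 in Il1b-positive cells, with no overlap (log2 fold change 5.63, adjusted p = 0.139 by edgeR). *Fau* had 345 ± 124 and 294 ± 107.4, which overlap. The elongation factor gene *Eef1a1* had 4529 ± 509 and 403 ± 308 (log2 fold change 2.93, adjusted p = 0.0984 by edgeR) and *Eef2* 881 ± 464 and 99.2 ± 21.1. *Tpt1*, a TOP mRNA as well, had 555 ± 142 and 1054 ± 925, with 2 captures in each direction. The nucleolar genes *Npm1* (661 ± 155 and 59.7 ± 77.04) and *Ncl* (399 ± 161 and 130 ± 115) were higher in precursor-positive cells in all 4 captures.

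By edgeR no gene of these lists was called in either comparison, beside the shares of all genes given above. DESeq2 also called none between the ages. Between the classes it called 29 of 47 mitochondrial ribosomal protein genes, 14 of 27 initiation factor genes and 10 of 18 biogenesis genes. It also called 2 of 7 elongation genes and 0 of 6 regulators. All these calls were higher in precursor-positive cells, a direction in which DESeq2 called 22.2% of all genes tested. Between the classes, the median log2 fold change by edgeR was 5.49 over 47 tested mitochondrial ribosomal protein genes, 3.71 over 27 initiation factor genes, 4.21 over 18 ribosome biogenesis genes, 2.93 over 7 elongation genes and 0.03 over 6 genes of mTOR and TOP regulation. These medians cover only genes that passed the filter on low counts. The ratio of mean CPM was also taken over the listed genes with a read in Il1b-positive cells. Its median was 6.81 for the ribosomal protein genes, 6.15 for the mitochondrial ones and 7.80 for initiation. It was 23.3 for biogenesis, 6.14 for elongation and 2.05 for the regulators. No such median over all genes is given, so these ratios do not place a list against all genes. Over all listed genes, 25 of 78 mitochondrial ribosomal protein genes were higher in precursor-positive cells in all 4 captures, 17 of 29 initiation factor genes, 15 of 32 biogenesis genes, 5 of 8 elongation genes and 0 of 11 regulators. The share over the 21620 genes with a read in these cells was 8.96%.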

How the data were processed

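Single-cell libraries were made by the authors from GFP+ cells captured on the Fluidigm C1, amplified, sequenced in pairs and aligned with STAR to GRCm38 with the vM11 annotation. The deposited table holds raw read counts per gene for 211 cells, with no molecular identifiers, so repeated PCR copies are counted. The authors removed cells with endothelial transcripts and outliers. Their metadata give age, capture (1 chip), sequencing run and a GFP intensity, which the authors deposited as a normalized score and which was not used here. Symbols and lengths came from GENCODE vM21 on the same build, which matched 48349 of 48709 gene identifiers, and start sites from RefSeq. The 92 spike-in entries were kept out of library sizes, and no doublet caller was run.

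Captures were the replicates. Cells of a capture were summed before any test. The study lists 4 mice for each capture, with fewer cochleae per capture in the labels than in its methods, and p-values measure the spread between captures. Counts summed per capture, or per capture and class for captures with at least 3 cells of each class, were tested in R 4.3.3 with edgeR 4.0.16. Scaling was by TMM, low counts were removed by filterByExpr, and the quasi-likelihood F test was adjusted by the Benjamini-Hochberg method with a threshold of 0.05. The class model held the capture as a block, since both classes came from the same captures. The standard error was the log2 fold change divided by the root of its F statistic. DESeq2 1.42.0 served as the other tool. RPKM used the mean length of the principal coding transcripts. Thinning drew 50000 reads per cell without replacement. Depth ranged from 41 to 5361476 reads per cell and limits the shallow cells most. The edgeR fits of both comparisons were tested on simulated data, and DESeq2 was not. Tables were handled in Python 3.11.15 with pandas 2.3.3, numpy 2.4.6 and scipy 1.17.1, and plots drawn with matplotlib 3.10.9.

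The members, the lists and the comparisons were chosen with earlier results of these data known. Genes named are the stalk genes and *Rpsa*, the 5 highest and 5 lowest members per kilobase, called members, a list chosen by role, the paralogs and related genes, with others said to be chosen by their values. Alternatives were other scalings, no filter, thinned cells, a term for run S047, other class rules and leaving out each capture. Comparing within runs and using captures with at least 1 cell of each class were chosen after seeing the data. Some genes that the rule names are not reported here.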

Additional observations from a re-analysis of the deposited data

Results flagged for a closer look

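In groups of 4 to 10 captures, 11 values stood apart from the others of their group by Dixon's gap rule, out of 71 groups tested, where chance gives about 1 in 20. Capture 10c at P60 gave 4 of them. Its ratio of large to small subunit reads was 2.60, with 1.36 the next highest of the 8 captures. Its CPM was 28648 for *Rpl28* (501 next), 17586 for *Rps20* (1164 next) and 17872 for *Rpl4* (1931 next).

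Capture 9c, from run S047 and the only P60 capture among the 4 in the class comparison, gave 6. In its Il1b-positive cells the CPM was 511 for *Rps27a*, 437 for *Rpl28*, 381 for *Rpl41* and 1740 for *Rps9*. In its precursor-positive cells they were 1689 for *Rpl10* and 1503 for *Rps9*. Capture 32 gave the last, with 2428 CPM of *Tpt1* in Il1b-positive cells and at most 690 in the others. Age, run and capture cannot be told apart for capture 9c.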

How the results depend on the processing

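No member was called higher at P120 or in Il1b-positive cells under any alternative run. The difference in share between the classes (4.17 percentage points) was 3.05 as a mean over cells and 3.19 with both-positive cells put with the precursor-positive. It was 3.91 to 4.48 with 1 capture left out, and the difference between ages was -1.56 to -0.748. The difference in members detected was 52.3 to 58.5.

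Counts of calls moved. Of all genes, edgeR called 10 between the ages, with 1 under RLE size factors, 5 under total reads, 22 with no filter, 1 in thinned cells, 0 with run S047 as a term (0 members at an unadjusted p under 0.05) and 1 to 16 with a capture left out. Members called higher at P60 (1) were 0 under DESeq2, RLE, total reads, no filter, thinning and the run term. They were 0 to 1 with a capture left out. Without Elane- or Mpo-positive cells they were 2, *Rpl28* and *Rps20*, both high in capture 10c. In that setting 11 of the 5106 genes tested were called higher at P60 and 0 higher at P120. Between the classes 18 genes were called higher and 90 lower in precursor-positive cells, with totals of 1850 under DESeq2, 60 with no filter, 53 in thinned cells, 172 with both-positive cells added, 6 in captures of at least 5 cells, 0 without Mki67- or Top2a-positive cells, 2 without Mcpt8- or Prss34-positive cells, 396 in captures of at least 1 cell, 36 within runs and 42 to 85 with a capture left out. Members called higher in precursor-positive cells (1) were 23, 0, 0, 2, 0, 0, 0, 5 and 0 in the same order, 5 under total reads, and 0 to 1 with a capture left out. Without the replicate block (no pairing by capture), 42 genes and 0 members were called. The causes were not tested, though several of these settings leave fewer cells or captures. Total reads called 66 genes as higher and 48 as lower in precursor-positive cells, against 18 and 90 under TMM.

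Signs turned, in log2 fold change, for *Rps20* between ages with the run term (0.27), and between classes for *Rpl11* (-0.0109 under DESeq2, -0.011 under RLE, -0.33 with at least 5 cells, -0.34 to 0.45 with a capture left out), *Rps9* (0.34 under total reads, 0.27 without Mki67- or Top2a-positive cells), *Rps27* (-0.38 with both-positive cells, -0.064 to 0.36 with a capture left out), *Rplp2* (-0.055 with at least 5 cells) and *Rpl28* (-0.62 without Mcpt8- or Prss34-positive cells). They also turned for *Fau* (0.31 under total reads, 0.11 without Mcpt8- or Prss34-positive cells, 0.58 with at least 1 cell), *Ncl* (-0.32 thinned, -0.053 without Mki67- or Top2a-positive and -0.62 without Mcpt8- or Prss34-positive cells) and *Tpt1* (0.86 within runs). A class threshold of 1 read left no capture with enough cells and gave no value.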

Other observations

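The cell with the highest share was a precursor-positive cell of capture 40, with 11.5% of 1059141 reads on 81 members, led by *Rpsa* with 5622 reads. Among precursor-positive cells the next was a cell of capture 28, with 7.76% of 1913974 reads on 82 members.

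In capture 9c the added spike-in RNA was read, which gives a scale outside the cells' own mRNA. Per 1000 spike-in reads, the 4 precursor-positive cells had a median of 107.4 ribosomal protein reads (0.404 to 144) and the 7 Il1b-positive cells 1.36 (0.548 to 35.1). All genes together gave medians of 1809 (18.9 to 2161) and 146 (79.2 to 1909). The ranges overlapped in both measures, through 1 or more cells at each end, and the capture is 1 replicate.

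The 2 cells of capture 21c positive for neither gene group gave 5.84% of their reads to the members, beside 2.26% in its 3 Il1b-positive cells.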
